A study of Homo sapiens with 4 samples.

Results

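GATA2 peaks were examined in K562 cells at 8 genes of the red cell membrane, GYPB, GYPC, SLC4A1, RHAG, EPB42, ANK1, SPTB and EPB41. A peak was counted at a gene if it overlapped the GENCODE gene body extended by 25 kb on each side in hg38. By this rule 52 of the 31777 asynchronous peaks and 7 of the 1648 mitotic peaks belonged to the 8 genes, whose windows together spanned 1149 kb. All 8 genes had asynchronous peaks, and 5 of them had a mitotic peak. GYPB and EPB41 had 2 mitotic peaks each, GYPC, SLC4A1 and RHAG had 1 each, and SPTB, ANK1 and EPB42 had none in the list.

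The red cell membrane is a lipid bilayer held up from inside by a meshwork of spectrin. The meshwork is tied to the bilayer at 2 kinds of complex. In one, ankyrin joins spectrin to the anion exchanger, to the Rh-associated glycoprotein and to the protein encoded by EPB42. In the other, the protein encoded by EPB41 joins spectrin and actin to glycophorin C. Inherited loss of several of these proteins gives fragile red cells, as in hereditary spherocytosis and elliptocytosis. GATA factors bind the letters GATA and control many genes of blood cells. GATA1 is the main one in maturing red cells and GATA2 in their progenitors, and both recognise the same letters.

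K562 is an established human line from a chronic myeloid leukaemia that carries erythroid features. Endogenous GATA2 was pulled down with an antibody from chromatin of asynchronous cells, which are mostly in interphase, and of mitotic cells, with 1 GATA2 library per condition. The labels name no transgene or deletion in either culture, and both were fixed with disuccinimidyl glutarate and formaldehyde. The mitotic cells had also been held with nocodazole, a drug that blocks spindle assembly. They were sorted on the mitotic epitope MPM-2 in several rounds whose cells were pooled. The authors state that the sorted cells could hold a small share of asynchronous cells, and its part in the mitotic peaks was not tested. Neither condition was repeated and a single line was used, so no difference between the conditions has a replicate check and none was tested. The lists give the positions of peaks with no height, score or p-value. The depth of the libraries is unknown from them, and a site missing from the mitotic list may lie under its limit of detection. Width is the one property of a peak that the lists give beside its position, and it stands in for strength here. Positions also hold no RNA levels, so neither the expression of the 8 genes nor the identity of the cells could be checked. The matched input libraries were not used here. A GATA match stood in 93.0% of all asynchronous and 95.6% of all mitotic peaks, beside 52.4% of sequences of equal width 5 kb away, which checks that hg38 is the build of the lists.

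The sequences of the mitotic peaks are shown first, because they are the stretches called in both conditions. Capitals mark each GATA match, which is AGATAA or AGATAG or TGATAA or TGATAG on either strand. From the other strand these letters read TTATCT or CTATCT or TTATCA or CTATCA. Each run is hg38 reference sequence on the strand of its gene, and GYPC is cut to the central 300 bases of its peak. For the GYPB peak over the start, the part before the first transcribed base is shown, and for the EPB41 peak at exon 9, the 30 bases around its GATA match.
GYPB downstream peak, chr4:143975619-143975789, minus strand: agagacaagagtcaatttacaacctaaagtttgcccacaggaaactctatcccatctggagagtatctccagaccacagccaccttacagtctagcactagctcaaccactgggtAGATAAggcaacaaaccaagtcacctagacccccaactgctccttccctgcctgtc
GYPB peak over the start, chr4:144019381-144019601, minus strand: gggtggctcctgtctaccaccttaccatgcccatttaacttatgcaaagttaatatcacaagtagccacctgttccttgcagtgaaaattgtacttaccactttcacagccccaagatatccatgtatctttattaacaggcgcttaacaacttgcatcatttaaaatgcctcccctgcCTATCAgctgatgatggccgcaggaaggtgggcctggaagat
GYPC upstream peak, chr2:126645248-126645547, plus strand: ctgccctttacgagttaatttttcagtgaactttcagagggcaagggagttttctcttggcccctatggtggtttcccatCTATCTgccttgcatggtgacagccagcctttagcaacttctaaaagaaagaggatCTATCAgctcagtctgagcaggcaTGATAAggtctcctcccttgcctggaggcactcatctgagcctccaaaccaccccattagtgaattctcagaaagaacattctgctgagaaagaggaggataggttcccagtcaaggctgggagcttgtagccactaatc
SLC4A1 intron 1 peak, chr17:44266632-44266900, minus strand: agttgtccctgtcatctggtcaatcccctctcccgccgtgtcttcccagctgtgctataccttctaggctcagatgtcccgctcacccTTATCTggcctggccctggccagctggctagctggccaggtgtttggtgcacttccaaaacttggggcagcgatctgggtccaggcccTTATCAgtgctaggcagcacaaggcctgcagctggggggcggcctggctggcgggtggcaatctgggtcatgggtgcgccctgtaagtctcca
RHAG upstream peak, chr6:49646351-49646583, minus strand: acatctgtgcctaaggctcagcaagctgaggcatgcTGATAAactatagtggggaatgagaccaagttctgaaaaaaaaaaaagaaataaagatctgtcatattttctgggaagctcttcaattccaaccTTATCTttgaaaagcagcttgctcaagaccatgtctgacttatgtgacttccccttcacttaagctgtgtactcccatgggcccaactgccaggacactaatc
EPB41 intron 1 peak, chr1:28926988-28927160, plus strand: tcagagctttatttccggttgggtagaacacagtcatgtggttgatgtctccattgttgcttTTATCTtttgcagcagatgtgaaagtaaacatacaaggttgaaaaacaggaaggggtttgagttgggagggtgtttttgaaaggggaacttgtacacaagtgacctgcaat
EPB41 exon 9 peak, chr1:29033140-29033169, plus strand: tctggtttacaaAGATAAgctgagaattaa

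All 7 mitotic peaks held at least 1 GATA match, between 1 and 3 each. The 2 SLC4A1 matches flank an E-box, CAGCTG, and 2 more E-boxes lie outside them. In the GYPB run over the start, the CTATCA and a CAGCTG share bases, so these matches overlap. A second GATA match there, AGATAA at chr4:144019379-144019384, spans the first transcribed base, and its first 4 bases end the printed run. The match of the EPB41 intron 1 peak belongs to a composite of CTG, 8 bases and GATAA, an arrangement that a GATA factor and the E-box protein TAL1 can bind together. That peak also holds AACCACA, the letters of RUNX factors, read from the other strand at chr1:28927024-28927030. Matches describe letters only and do not show which factor was bound.

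Across the 8 genes, the asynchronous peaks were dense in comparison with other genes. The windows held a median of 6.5 asynchronous peaks, while the median over all 20033 protein-coding genes was 1 and 35.3% of those genes had none. Per 100 kb of window, which allows for gene length, the median of the 8 genes was 4.75 peaks and that of all protein-coding genes 1.37. The density ran from 2.38 peaks per 100 kb at ANK1 to 9.55 at GYPB, and 8 of 8 genes lay above the median gene. Their windows ran from 69.8 kb at SLC4A1 to 293.5 kb at ANK1 with a median of 86.1 kb, beside a median of 77.5 kb for all protein-coding genes.

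Mitotic peaks were found at 5 of the 8 genes, or 62.5% (95% exact binomial interval 24.5% to 91.5%). Of all protein-coding genes, 1603 of 20033 or 8.0% had a mitotic peak in the same kind of window. Of those with at least 2 asynchronous peaks, the lowest number at any of the 8 genes, 17.2% had one. The 8 genes had a median of 6.5 asynchronous peaks, and no background matched to their numbers of peaks was computed. Counted by peak, 7 of the 52 asynchronous peaks, or 13.5% (5.59% to 25.8%), overlapped a mitotic peak by at least 1 base and are called bookmarked. That share was 5.04% in the whole asynchronous list and 4.77% among asynchronous peaks in the window of any protein-coding gene. Both intervals cover counting error over 8 genes or 52 peaks only and do not cover the spread between cultures. With the gene body alone, 3 of the 8 genes and 4.01% of all protein-coding genes had a mitotic peak, and with reciprocal overlap of 50% the bookmarked share was 5.77% at the 8 genes and 2.02% in the list. The genes were chosen by function while results of these data were already known, so the counts are a description of these 8 genes and not a test.

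Each of the 7 mitotic peaks lay wholly inside 1 asynchronous peak. Among protein-coding starts, each was nearest to one of its own gene, which windows drawn around the genes favour. The mitotic peaks were 171 to 323 bp wide with a median of 233 bp, and 6 of 7 were narrower than the median of 298 bp of the mitotic list. They covered a median of 36.8% of the asynchronous peak around them (17.9% to 68.6%). The midpoints of both calls were a median of 60 bp apart (9 to 171 bp). A peak that lies inside another is the narrower by definition, and this also limits how far apart their midpoints can be. The covered share and the midpoint distance were not computed for the whole lists.

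Glycophorins are the heavily sialylated proteins of the red cell surface. GYPB (ENSG00000250361) encodes glycophorin B, which carries the S and s blood group antigens, and lies on the minus strand at chr4:143996104-144019380. Its window of 73.3 kb held 7 asynchronous peaks, a density that 0.993% of protein-coding genes reached, and 2 mitotic peaks, a number that 0.973% reached. The first mitotic peak, at chr4:144019344-144019601, lay over the start of the canonical transcript and filled 68.6% of a 376 bp asynchronous peak. Of the 5 genes with an asynchronous peak over the canonical start (GYPB, SPTB, ANK1, EPB42 and RHAG), GYPB was the one where that peak was bookmarked. The second mitotic peak was 171 bp wide and lay beyond the 3′ end, 43513 bp from the nearest GYPB start, inside a 465 bp asynchronous peak. The other 5 asynchronous peaks were in introns 1 to 3 and none was bookmarked. They included the widest of the gene, 747 bp in intron 1 with 7 GATA matches, which was the largest number of matches in any peak of the 8 genes. In intron 2 a pair of peaks had midpoints 355 bp apart.

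GYPB has a close copy nearby, GYPE, and the reads kept by the authors were those that mapped to a single place. All 7 GYPB asynchronous peaks held stretches of 75 bases, the read length, that occur elsewhere in the chromosomes searched. The share of such 75-base words found once ran from 65.8% to 97.4% over the GYPB peaks and was 72.5% in the peak over the start. In the 45 peaks of the other 7 genes, 44 had every word unique, and the remaining GYPC peak had 97.1%. Of the 7 mitotic peaks, the one over the GYPB start had 73.4% of its words unique and the other 6 had 100%. The part of read mapping in the number and width of the GYPB peaks was not tested.

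The same sites at GYPE were compared after the GYPB values had been seen. GYPE encodes glycophorin E and lies at chr4:143870864-143905563. For 6 of the 7 GYPB peaks, an alignment over at least 80% of the peak was found in the GYPE window, with identities of 93.4% to 98.1%. An asynchronous peak lay on 4 of these 6 copies and a mitotic peak on none. The copy of the start peak, 98.1% identical with the same number of GATA matches, 2, was under an asynchronous peak of 343 bp at chr4:143905462-143905804. The copy of the downstream peak, 95.5% identical, was under an asynchronous peak of 469 bp, slightly wider than the 465 bp at GYPB. So the copies of both bookmarked GYPB peaks were called in asynchronous cells and were absent from the mitotic list. The GYPE start peak had 87.7% of its words unique and the downstream one 79.0%, beside 72.5% and 97.4% at GYPB.

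GYPC (ENSG00000136732) encodes glycophorins C and D, which anchor the membrane skeleton through the EPB41 protein, and lies on the plus strand at chr2:126656133-126696667. Its window held 5 asynchronous peaks, or 5.52 per 100 kb, and 1 mitotic peak. In order along the chromosome the asynchronous peaks were 632, 388, 342, 247 and 482 bp wide. The mitotic peak, chr2:126645236-126645558, lay 10575 bp upstream of the gene in the widest of them. With 323 bp it was the widest mitotic peak of the 8 genes, and with 3 GATA matches it held the most. Upstream of the gene lay 4 of the 5, and the last was in intron 1. Among them 2 upstream peaks of 388 and 247 bp had no GATA match, the nearer of them 810 bp from the start. No peak covered the canonical GYPC start.

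The genes of the ankyrin complex differed from one another. SLC4A1 (ENSG00000004939) encodes the anion exchanger that trades chloride for bicarbonate, the most abundant protein of the red cell membrane, and lies on the minus strand at chr17:44248390-44268141. Its window held 6 asynchronous peaks, or 8.60 per 100 kb, a density that 1.58% of protein-coding genes reached. The 1 mitotic peak, chr17:44266632-44266900, was in intron 1, 1234 bp past the nearest start, inside a 466 bp asynchronous peak. This was the sole peak inside the gene body. The widest peak of the window, 929 bp at chr17:44245602-44246530 with 4 GATA matches and 1 composite, was downstream of the gene and not bookmarked. Likewise, a 684 bp peak with 6 GATA matches, 20115 bp upstream, was not bookmarked and was nearer to the start of RUNDC3A.

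RHAG (ENSG00000112077) encodes the Rh-associated glycoprotein, a channel-like protein that the Rh antigens need to reach the surface, and lies on the minus strand at chr6:49605175-49636839. Its window held 4 asynchronous peaks of 189, 635, 244 and 867 bp in order along the chromosome. The widest, chr6:49646205-49647071, lay 9366 bp upstream and held the 1 mitotic peak, which was 233 bp wide and covered 26.9% of it. The 635 bp peak over the start, with 1 GATA match, was not bookmarked, nor was the 244 bp peak 507 bp upstream with 2 matches.

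EPB42 (ENSG00000166947) encodes a protein that binds ankyrin and the anion exchanger and resembles transglutaminases without their activity, and lies on the minus strand at chr15:43197227-43221018. It had the fewest peaks of the 8 genes, 2 asynchronous and no mitotic, or 2.71 per 100 kb, a density that 27.0% of protein-coding genes reached. One of them, chr15:43220892-43221675, covered the canonical start with 784 bp, 6 GATA matches and 1 composite. It was wider than 94.6% of the asynchronous list and than the median of 624 bp of the bookmarked peaks at the 8 genes, and no mitotic peak overlapped it. The other, 382 bp, had no GATA match and was nearer to the start of TGM5.

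The promoters of RHAG, EPB42 and SPTB are shown because an asynchronous peak covered each start and no mitotic peak did. Each run is the 250 bases before the RefSeq start in GRCh38.p14, on the strand of the gene, and capitals mark the same GATA letters as above.
RHAG promoter, chr6:49636840-49637089, minus strand: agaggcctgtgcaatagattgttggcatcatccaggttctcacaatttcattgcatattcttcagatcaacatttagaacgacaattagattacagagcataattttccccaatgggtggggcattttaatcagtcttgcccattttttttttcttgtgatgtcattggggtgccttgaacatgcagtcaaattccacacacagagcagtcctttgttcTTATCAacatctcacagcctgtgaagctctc
EPB42 promoter, chr15:43221019-43221268, minus strand: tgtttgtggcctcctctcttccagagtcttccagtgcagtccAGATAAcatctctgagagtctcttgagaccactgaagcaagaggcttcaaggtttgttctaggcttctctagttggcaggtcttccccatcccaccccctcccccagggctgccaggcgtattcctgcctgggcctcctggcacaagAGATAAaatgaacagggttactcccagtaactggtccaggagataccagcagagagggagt
SPTB promoter, chr14:64879908-64880157, minus strand: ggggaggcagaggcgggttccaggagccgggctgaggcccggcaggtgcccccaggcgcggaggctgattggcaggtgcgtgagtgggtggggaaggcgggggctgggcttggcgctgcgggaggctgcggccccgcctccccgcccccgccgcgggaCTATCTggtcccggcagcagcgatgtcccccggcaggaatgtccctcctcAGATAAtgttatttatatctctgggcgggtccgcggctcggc

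The 3 promoters held 1, 2 and 2 GATA matches, and 22.3% of the 35116 RefSeq promoters of this length held at least 1. The 3 were chosen for a GATA2 peak over the start, and 93.0% of all asynchronous peaks hold a match, so their matches are a description. The RHAG match, TTATCA, ended 25 bases before the start, and the nearer SPTB match 36 bases before it. The nearer EPB42 match, 55 bases before the start, completes a composite of CTG, 8 bases and GATAA. That composite was in 0.496% of RefSeq promoters and in 8.55% of all asynchronous peaks. The bookmarked GYPB start carried the same kind of letters, with CTATCA 36 bases before 1 RefSeq start. Another RefSeq start under the same peak had AGATAA 33 bases and CTATCA 71 bases before it. The start of ANK1 was also under an asynchronous peak that was not bookmarked, and that peak held no GATA match. Its sequence is not shown.

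SPTB (ENSG00000070182) encodes erythroid beta-spectrin, one chain of the meshwork, and lies on the minus strand at chr14:64746283-64879907. Its 8 asynchronous peaks were 186 to 564 bp wide with a median of 310.5 bp, the lowest median of the 8 genes. Every one had a GATA match, 18 in all, and none was bookmarked. The widest, 564 bp with 4 GATA matches, was in intron 1, 4103 bp past the start, together with 4 narrower peaks of that intron. The peak over the canonical start, 315 bp wide, had a GC content of 74.6%, beside a median of 44.1% in the asynchronous list.

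EPB41 (ENSG00000159023) encodes the protein that fastens spectrin to actin and to glycophorin C, and lies on the plus strand at chr1:28887091-29120046. With 13 it had the most asynchronous peaks of the 8 genes, a number that 0.948% of protein-coding genes reached. Its window was long, 283.0 kb, and per 100 kb the 4.59 peaks were reached by 11.1% of genes. All 13 held a GATA match, 34 in total. Of them 2 were bookmarked. The first, chr1:28926426-28927394 in intron 1, was the widest asynchronous peak of all 8 genes with 969 bp, and its mitotic peak of 173 bp covered 17.9% of it. The next peak in the same intron, chr1:28928005-28928876, was 872 bp wide with 4 GATA matches, 1 composite and 1 RUNX match, and no mitotic peak overlapped it. So these neighbours were alike in width, both held GATA, composite and RUNX letters, and they differed in the mitotic list.

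The second mitotic peak of EPB41 was at chr1:29033031-29033230. Peaks over a canonical start aside, it was the one site placed in an exon by its midpoint among the 52 asynchronous peaks. It lay inside an asynchronous peak of 624 bp with 5 GATA matches. Of its 200 bases, 138 fell in exon 9 of the canonical transcript, chr1:29033093-29033245, and the rest in intron 8. Its GATA match, AGATAA at chr1:29033152-29033157, was itself inside exon 9. The nearest EPB41 start, that of a shorter transcript, was 6188 bp downstream of the peak. Another wide peak of the gene, 716 bp in intron 16 with 5 GATA matches, covered an internal start and was not bookmarked.

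ANK1 (ENSG00000029534) encodes erythroid ankyrin, the adaptor that joins spectrin to the anion exchanger, and lies on the minus strand at chr8:41653220-41896741. Its window was the longest, 293.5 kb, and its density the lowest of the 8 genes, 2.38 peaks per 100 kb, which 30.1% of protein-coding genes reached. All 7 asynchronous peaks lay inside the gene body and none was bookmarked. They were 306 to 740 bp wide with a median of 419 bp. The widest, chr8:41822832-41823571, was upstream of the canonical transcript but inside the gene, 25210 bp from the nearest ANK1 start. The peak over the canonical start, 404 bp, had no GATA match and a GC content of 72.8%, beside 74.6% for that of SPTB.

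Most of the peaks stood away from starts. Of the 52 asynchronous peaks, 23 were intronic, 16 were upstream of the canonical transcript, 5 covered its start, 4 were downstream, 3 were upstream of the canonical transcript but within the gene, and 1 was exonic. Of the 52, 8 or 15.4% (6.88% to 28.1%), came within 1 kb of a start of their gene, and 11.5% of the whole list came within 1 kb of a protein-coding start. For 48 of the 52 the nearest protein-coding start was one of the gene itself, which windows drawn around each gene favour. The remaining 4 were nearest to CHURC1, UBTF, RUNDC3A and TGM5, and none of those 4 was bookmarked.

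Bookmarked peaks were wider than the others at these genes. Their median was 624 bp (376 to 969 bp, n = 7), and that of the other 45 was 382 bp (122 to 929 bp), a difference of 242 bp. Where reciprocal overlap of 50% defined a bookmarked peak, the medians were 466 and 395 bp and the difference 71 bp. The mitotic peaks were at most 323 bp wide, so the widest asynchronous peaks cannot meet that rule. It moves them to the other group by their width and is no separate check of the difference. In the whole list the medians were 674 bp and 367 bp. The list was also split into 4 width classes of nearly equal size at 267, 378 and 518 bp. From the narrowest class to the widest, 0 of 10, 1 of 12, 2 of 16 and 4 of 14 peaks of the 8 genes were bookmarked. The corresponding shares of the list were 0.189%, 0.627%, 3.19% and 16.2%, and that of the widest class at the 8 genes was 28.6% (8.39% to 58.1%). The widths overlapped, and width alone did not tell the peaks apart within a gene. The widest peak was bookmarked at GYPC, RHAG and EPB41, and not at GYPB, SLC4A1, SPTB, ANK1 or EPB42.

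GATA letters were nearly as common in the 52 peaks as in the list. A GATA match was present in 48 of 52, or 92.3% (81.5% to 97.9%), and in 93.0% of the list, with a mean of 2.27 ± 1.57 (SD, n = 52) matches per peak beside 2.51 ± 2.99 (n = 31777). Bookmarked peaks had a mean of 2.86 ± 1.35 matches (n = 7) and the other peaks 2.18 ± 1.60 (n = 45), and the difference was not tested. The bookmarked peaks were also wider, with means of 628 and 420 bp. Matches per kb were not compared between these groups, so the counts do not show a denser set of GATA letters. Per kb of sequence the 52 peaks had 5.06 matches and the list 6.0. The composite was found in 5 peaks, at GYPB, SLC4A1, EPB42 and in 2 peaks of EPB41, or 9.62% (3.20% to 21.0%) beside 8.55% of the list. None of these 5 lay in the central 200 bp of its peak, where 6.30% of the list had one. With 7 to 9 bases between CTG and GATAA, 34.6% of the 52 peaks and 23.4% of the list had a match.

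The letters of partner factors varied more. The E-box CAGCTG was in 34.6% of the 52 peaks (22.0% to 49.1%) and in 24.1% of the list. ETS letters, AGGAAGT, were in 26.9% (15.6% to 41.0%) and in 14.9% of the list. For RUNX the shares were 7.69% (2.14% to 18.5%) and 13.6%, and for AP-1 letters (TGACTCA or TGAGTCA) 7.69% and 13.0%. The CACCC box, CCACACCC, was in 3.85% of the 52 peaks and 4.05% of the list. The 7 mitotic peaks held no ETS, AP-1 or CACCC letters, which allows shares of up to 41.0%, and the shares in the mitotic list were 14.2%, 11.7% and 2.12%. Of the 7 asynchronous peaks around them, 3 held ETS letters. In all 7 motifs were counted, the 52 peaks were slightly wider than the list (median 399.5 and 378 bp), and no test was made, so the ETS share is a description.

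The same windows were counted at 24 other genes of the red cell membrane, among them the Rh genes, the adducins and carriers of other blood groups. All 24 had asynchronous peaks, with a median density of 5.11 per 100 kb that was near the 4.75 of the 8 genes. A mitotic peak was found at 5 of the 24, or 20.8% (7.13% to 42.2%), beside 17.2% of protein-coding genes with at least 2 asynchronous peaks and 8.0% of all protein-coding genes. These were XK, which carries the Kx antigen, the adhesion receptor gene ICAM4, the water channel gene AQP1, the mechanosensitive channel gene PIEZO1 and SEMA7A, which carries the John Milton Hagen antigen. The peak in the ICAM4 window covered a start of ICAM5. By peak, 5 of 109, or 4.59% (1.51% to 10.4%), were bookmarked, near the 4.77% of all protein-coding windows. So the larger share at the 8 genes, 13.5%, was not seen over the wider set, whose interval overlaps theirs.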

How the data were processed

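GATA2 ChIP-seq reads of 75 nt from 1 asynchronous and 1 mitotic K562 library were aligned to hg38 by the authors, who kept uniquely mapped reads, called peaks and removed those on the ENCODE blacklist. The submitters' processing notes name BWA 0.7.12, MACS2 2.1.0, Genrich 0.6.1 and deepTools 2.5.4. How the callers were combined, their thresholds and the use of the inputs are not given in the sources used here. The deposited lists give, in 3 columns, the genomic position of each peak in bp, without score or depth.

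Peaks, printed with the first base as 1, were assigned to GENCODE release 44 gene bodies extended by 25 kb. A nearest start is that of any transcript of a protein-coding gene, distances run from the nearer edge of the peak, and a place is read from the midpoint on the canonical transcript. Peaks were called bookmarked if they shared at least 1 base with a mitotic peak. At the edge of the windows, the outermost asynchronous peak inside lay 23088 bp from its gene (EPB41) and the nearest outside 26102 bp (RHAG), and for mitotic peaks these were 20315 bp and 34744 bp (both GYPB). Motifs were matched as strings on both strands without overlap within a motif. Copies at GYPE were found with blastn 2.17.0. Shares carry 95% exact binomial (Clopper-Pearson) intervals. The 8 genes, both comparison lists and the motifs were chosen by function with earlier results of these data known. Named by rule are the 8 genes, each mitotic peak, the widest asynchronous peak of each gene and the genes of the other lists with a mitotic peak. Other single peaks were chosen after their values were seen. With 1 library per condition no test was made. The steps were tested on simulated data with Python 3.11.15, numpy 2.4.6, scipy 1.17.1 and pysam 0.24.0. The alternatives changed the window, overlap rule, gene assignment, widths used and motif search.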

Additional observations from a re-analysis of the deposited data

How the results depend on the processing

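Under other settings, counts and shares changed as follows. With the gene body alone, there were 32 asynchronous peaks at the 8 genes and 4 mitotic peaks at 3 of them, and 804 protein-coding genes had a mitotic peak. With 100 kb on each side there were 80 asynchronous peaks, and 3714 protein-coding genes had a mitotic peak. Limited to those no narrower than the list median, the asynchronous peaks numbered 30. The share with the GATA:E-box composite depended most on the search: it was 0% in the central 200 bp (6.30% in the list) and 34.6% with 7 to 9 bases between CTG and GATAA (23.4% in the list).

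The bookmarked share was lowest, 5.77%, when reciprocal overlap of 50% was required (2.02% in the list), and highest, 20.0%, for peaks no narrower than the list median (9.65% in the list). Reciprocal overlap also took the difference in median width from 242 to 71 bp, but the widest asynchronous peaks cannot meet that rule. The median density was 2.77 per 100 kb with the narrower peaks left out. In settings chosen after seeing the data, the share was 11.1% without GYPB, and without the 4 peaks nearest to another gene 14.6%. No paired analysis was possible because there is 1 library per condition and the labels carry no replicate numbers. Depth is unknown, so a peak absent from the mitotic list is not shown to lack GATA2.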

Other observations

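Relatives of the 8 genes that serve other tissues were counted in the same windows. Of 13 such genes, 11 had asynchronous peaks and 2, or 15.4% (1.92% to 45.4%), had a mitotic peak. Among all protein-coding genes 8.0% had one, and 17.2% among those with at least 2 asynchronous peaks. EPB41L1, a relative of EPB41, had 4 asynchronous peaks and 2 mitotic ones, of which one covered an EPB41L1 start at chr20:36091719-36091941. SPTBN1, which encodes the widely expressed beta-spectrin, had 11 asynchronous peaks and 1 mitotic peak, 31240 bp from its nearest start. EPB41L2 had 18 asynchronous peaks, more than the 13 of EPB41, and no mitotic peak in the list. EPB41L3 and RHCG had no peak in either list. Over the relatives, 3 of 67 asynchronous peaks, or 4.48% (0.933% to 12.5%), were bookmarked, and the median density was 2.67 peaks per 100 kb.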
